A study of Mus musculus with 6 samples.

Results

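Glucocorticoid response genes were followed across the immune cells of the mouse soleus. The set held 8 of the 31053 genes in the count tables, chosen by symbol and not by their values here: the receptor gene Nr3c1, and Fkbp5, Tsc22d3, Klf9, Zbtb16, Per1, Sgk1 and Ddit4, which glucocorticoids are known to induce. All 8 were found. Their levels were read in each cell class with at least 20 cells in a library, as a trace of systemic stress during hindlimb unloading. Male C57BL/6 mice were old (20 to 22 months) or young (4 to 5 months), and were ambulatory controls, were unloaded by hindlimb unloading (HU) for 14 days, or were reloaded for 4 days after such unloading. Live CD45+ cells of the soleus, a slow postural muscle, were sorted and sequenced as single cells on the 10x platform. Each of the 6 libraries pooled several mice: 20 old and 10 young control mice, 10 old and 8 young HU mice, and 10 old and 10 young reload mice. With 1 library per age and treatment, the difference between 2 libraries could not be tested, and the intervals given for single libraries cover counting error only. The tests below take the ages as repeats of a treatment, or the treatments as repeats of an age, and their p-values measure the spread between pooled libraries. Both control libraries were sequenced in another run than the other 4, so HU against control cannot be told apart from the run, whereas reload and HU shared a run but carry different leading numbers in their titles, the meaning of which is not given in the sources used here.

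Glucocorticoids, corticosterone in the mouse, are released from the adrenal gland under stress and in a daily rhythm. They bind the receptor encoded by Nr3c1, which is held by heat shock chaperones in the cytoplasm, moves to the nucleus and binds response elements in DNA. Fkbp5 encodes a co-chaperone that lowers the receptor's affinity for hormone, Tsc22d3 (GILZ) a leucine zipper protein that dampens inflammatory transcription, and Klf9 and Zbtb16 (PLZF) zinc finger transcription factors. Per1 is a core circadian clock gene, Sgk1 encodes a serum and glucocorticoid regulated kinase, and Ddit4 (REDD1) an inhibitor of mTORC1 signalling that also responds to hypoxia and energy stress. Glucocorticoids are known for a catabolic action in skeletal muscle and, in macrophages, for raising a scavenging programme that includes Cd163.

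In mm10, Fkbp5 lies at chr17:28399094-28517527 on the minus strand, Tsc22d3 at chrX:140539528-140600659 on the minus strand and Klf9 at chr19:23141226-23168134 on the plus strand. Zbtb16 lies at chr9:48654297-48836222 on the minus strand, Per1 at chr11:69095217-69109960 on the plus strand, Sgk1 at chr10:21882184-21999903 on the plus strand and Ddit4 at chr10:59949669-59951834 on the minus strand. The 250 bases before each transcription start given by RefSeq (GRCm38.p6) were searched on both strands for the palindromic glucocorticoid response element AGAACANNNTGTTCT, for its core AGAACA and for the E-box CACGTG, which the clock proteins bind. The element contains the core, and the motifs can overlap. Of 32851 such windows in the genome, 3 (0.00913%) held the element, 5284 (16.1%) the core and 1978 (6.02%) the E-box. The table gave 6 starts for Sgk1, 3 for Tsc22d3, 2 for Per1 and 1 each for Fkbp5, Klf9 and Ddit4. A window of Sgk1 held the element at position -189 from the start (-1 is the last base before it), with an E-box at -246 that overlaps another core. Cores without the element were found in 2 other Sgk1 windows, at -195 and -13, and in a Tsc22d3 window at -185. An E-box stood at -169 in the Fkbp5 window and at -166 in a Per1 window, and the Klf9 and Ddit4 windows held none of the motifs. Shown are a window with the element, a window with the core alone and the window of Fkbp5, the gene whose fitted level differed most between reload and HU in macrophage-like cells after Ddit4. They are the Sgk1 window at chr10:21993640-21993889 (plus strand), the Tsc22d3 window at chrX:140600523-140600772 (minus strand) and the Fkbp5 window at chr17:28486150-28486399 (minus strand), 5′ to 3′, with the matches in capitals.
Sgk1: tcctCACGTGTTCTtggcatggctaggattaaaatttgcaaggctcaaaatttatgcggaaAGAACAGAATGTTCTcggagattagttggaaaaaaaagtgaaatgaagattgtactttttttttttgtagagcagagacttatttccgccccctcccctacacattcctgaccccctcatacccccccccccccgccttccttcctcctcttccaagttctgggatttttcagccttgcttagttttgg
Tsc22d3: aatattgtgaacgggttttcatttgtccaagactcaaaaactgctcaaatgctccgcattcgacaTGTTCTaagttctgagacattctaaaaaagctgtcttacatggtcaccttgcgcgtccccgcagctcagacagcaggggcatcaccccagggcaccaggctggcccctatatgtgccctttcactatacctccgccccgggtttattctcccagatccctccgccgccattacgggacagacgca
Fkbp5: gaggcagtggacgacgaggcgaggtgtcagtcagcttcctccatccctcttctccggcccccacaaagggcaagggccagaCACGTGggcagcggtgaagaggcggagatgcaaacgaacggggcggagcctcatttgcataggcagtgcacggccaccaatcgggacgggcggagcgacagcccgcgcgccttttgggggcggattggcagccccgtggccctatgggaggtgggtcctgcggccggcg

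After filtering, 12220 of 15467 barcodes remained, between 1494 and 2568 in each library. The limit of 10% mitochondrial UMIs was exceeded by 9.46% of old and 4.12% of young control, 9.6% of old and 27.5% of young HU, and 17.4% of old and 33.3% of young reload barcodes, which were left out. The median number of unique molecular identifiers (UMIs, the counted mRNA molecules) per cell was 2539 in old and 2548 in young HU, and 3900.5 to 7883 in the other libraries. Marker genes placed 10919 cells (89.4%) in a class, 864 of them with a lead of a single marker over the next class. Macrophage-like cells were the largest class, with 404 old and 571 young control, 656 old and 608 young HU, and 1264 old and 1399 young reload cells. The young HU library stood apart within it, since 354 of its cells (58.2%) lay in a cluster led by Cd209f, Fcna, Lyve1 and Vsig4, against 86 old HU cells (13.1%). Endothelial-like cells, which a CD45 sort should largely remove, numbered 180 in old and 312 in young HU, and at most 18 in any other library. The control libraries shared 41 barcodes, and the other pairs of libraries 5 to 17. Levels below are the UMIs of a gene over all UMIs of the class in that library, on the CPM scale.

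In macrophage-like cells, Fkbp5, Tsc22d3, Klf9 and Zbtb16 stood highest in both HU libraries and lowest in both reload libraries, and Ddit4 was also highest in HU. Fkbp5, the feedback co-chaperone of the receptor, was at 34.8 CPM in old and 30.1 CPM in young control cells, at 75.1 CPM in old and 122 CPM in young HU cells, and at 6.82 CPM in old and 14.3 CPM in young reload cells. Tsc22d3 was at 224 CPM in old and 289.6 CPM in young control cells, at 367 CPM in old and 992 CPM in young HU cells, and at 83.5 CPM in old and 149 CPM in young reload cells. For either gene, HU lay above control and reload below it at both ages, and young HU was the highest library. Klf9 was at 44 CPM in old and 51.7 CPM in young control cells, at 135 CPM in old and 173 CPM in young HU cells, and at 22 CPM in old and 25.4 CPM in young reload cells. Zbtb16, the gene of the set with fewest UMIs in this class, was at 8.18 CPM in old and 11.4 CPM in young control cells, at 15.6 CPM in old and 21.9 CPM in young HU cells, and at 4.24 CPM in old and 3.78 CPM in young reload cells. The order of the stages was the same for both, and in HU and reload the ages lay closer together than for Tsc22d3. Ddit4, the mTORC1 inhibitor, was at 20.8 CPM in old and 18.1 CPM in young control cells, at 85.2 CPM in old and 372 CPM in young HU cells, and at 16.4 CPM in old and 20.6 CPM in young reload cells. For Ddit4 the control and reload libraries overlapped, and HU alone was set apart.

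**Figure D1:**
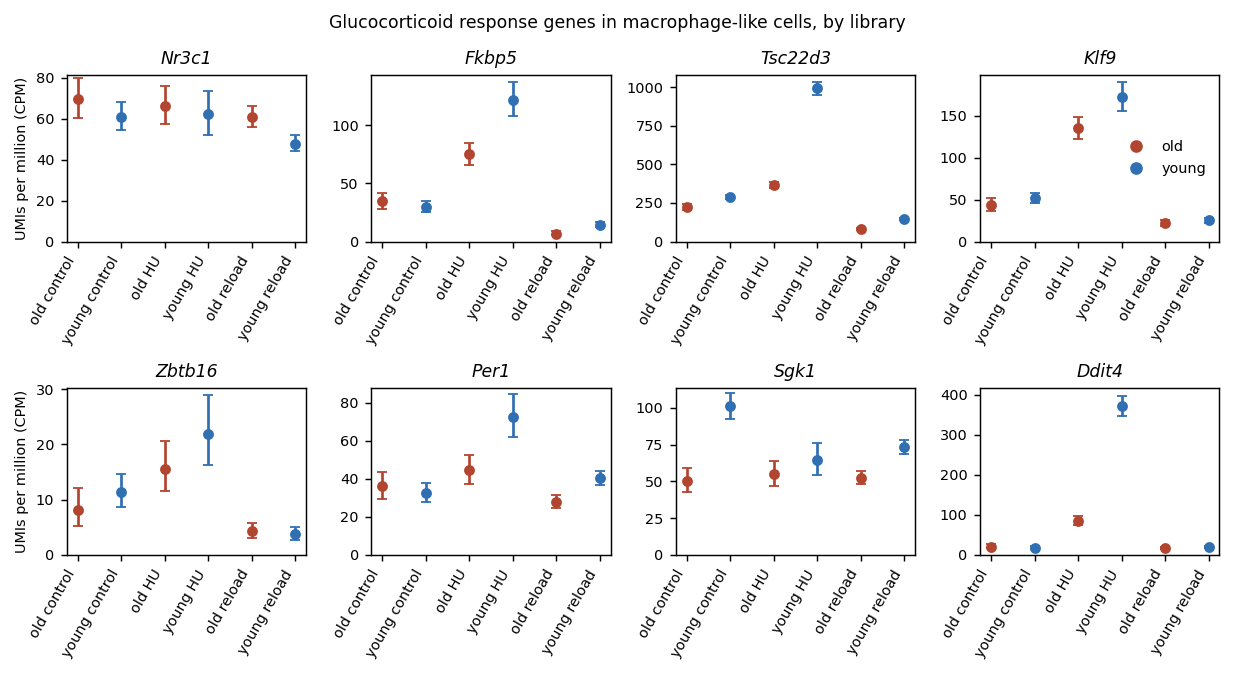
CPM of the 8 genes in macrophage-like cells, 1 point per library with its exact 95% Poisson interval (counting error only), for old and young mice in the order control, HU, reload. Ddit4 reached 85.2 CPM in old and 372 CPM in young HU, whereas Nr3c1 stayed between 47.9 and 69.5 CPM.

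Reload was compared with HU over both ages, in an additive fit of age and treatment (edgeR quasi-likelihood test, Benjamini-Hochberg adjustment over 10205 genes). In macrophage-like cells 5 of the 8 genes fell with reload and none rose, where 7.8% of all genes were called in either direction. The log2 fold change was -3.19 ± 0.31 for Fkbp5, -2.65 ± 0.20 for Klf9 and -2.41 ± 0.26 for Tsc22d3 (SE, adjusted p = 0.0186 each). It was -3.35 ± 0.51 for Ddit4 (adjusted p = 0.027) and -2.16 ± 0.29 for Zbtb16 (adjusted p = 0.0233). The median over the 8 genes was -2.28, against 0.015 over all genes. Without the young reload library no gene at all was called, and the 5 genes had log2 fold changes of -3.66 to -1.86 (adjusted p 0.0991 to 0.197). Without the old reload library Ddit4 was not called (adjusted p = 0.0535), and without the young HU library all 5 were.

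HU against control gave positive values for 6 of the 8 genes, all but Sgk1 and Nr3c1, and no call in macrophage-like cells. The log2 fold change was 3.28 ± 0.53 for Ddit4, 1.66 ± 0.20 for Klf9, 1.54 ± 0.30 for Fkbp5 and 1.23 ± 0.25 for Tsc22d3 (SE, adjusted p = 0.11 each by edgeR). With edgeR 0% of the 10205 genes were called, although 2470 of them and 6 of the 8 had an unadjusted p under 0.05, and DESeq2 called these 4 among 285 of 7235 genes called. They were also called by edgeR without the old HU library, among 1758 of 11127 genes called, and Klf9 and Ddit4 without the young HU library, among 14 of 10945. Within old mice, the HU over control log2 ratio (95% counting interval) was 2.04 for Ddit4 (1.63 to 2.46), 1.62 for Klf9 (1.33 to 1.92), 1.11 for Fkbp5 (0.77 to 1.46) and 0.71 for Tsc22d3 (0.57 to 0.85). Within young mice it was 4.36 for Ddit4 (4.05 to 4.68), 2.02 for Fkbp5 (1.73 to 2.31), 1.78 for Tsc22d3 (1.68 to 1.87) and 1.74 for Klf9 (1.51 to 1.97). All 8 intervals lay above 0, and how many of all genes had such intervals was not counted.

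Of the other 3 genes, Per1 was highest in HU without passing the test, and Sgk1 and Nr3c1 were not highest there. Per1, the clock gene, was at 36.1 CPM in old and 32.6 CPM in young control cells, at 44.5 CPM in old and 72.8 CPM in young HU cells, and at 27.8 CPM in old and 40.5 CPM in young reload cells. Both HU libraries lay above the others, which overlapped, but old HU, on 140 UMIs, lay close to young reload. Young HU alone was set well apart. Reload over HU did not pass the test (log2 fold change -0.72 ± 0.22, adjusted p = 0.0938 and unadjusted p = 0.0167 by edgeR), nor did HU over control (0.71 ± 0.23, adjusted p = 0.147 and unadjusted p = 0.0195). With classes taken from clusters, the fall with reload was called (adjusted p = 0.0479 by edgeR), where 1137 of 9139 genes were called. Sgk1, the kinase gene with the response element in a promoter window, was at 50.4 CPM in old and 101 CPM in young control cells, at 54.7 CPM in old and 64.7 CPM in young HU cells, and at 52.4 CPM in old and 73.4 CPM in young reload cells. Its highest library was young control, and the fitted log2 fold changes were -0.29 ± 0.28 for HU over control and 0.085 ± 0.27 for reload over HU (adjusted p = 0.536 and 0.859 by edgeR). Nr3c1, the receptor gene, lies at chr18:39410545-39519421 on the minus strand in mm10 and was at 69.5 CPM in old and 60.9 CPM in young control cells, at 66.2 CPM in old and 62.1 CPM in young HU cells, and at 60.9 CPM in old and 47.9 CPM in young reload cells. Its fitted log2 fold changes were -0.041 ± 0.19 for HU over control and -0.20 ± 0.19 for reload over HU (adjusted p = 0.91 and 0.504 by edgeR).

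In HU, Tsc22d3 was spread over many macrophage-like cells, as was Ddit4 in young HU. In control and reload, 100% of Ddit4 UMIs lay in the 10% of cells with most of them, as did those of Zbtb16 in every library. That value is fixed once no more than 10% of cells hold a UMI, so it reflects low detection. It cannot show that the genes were concentrated in few cells. Zbtb16 had 24 UMIs in old control and 59 UMIs in young control cells. Cells were thinned to 2000 UMIs each, which left 364 old and 537 young control, 503 old and 444 young HU, and 1150 old and 1271 young reload cells. A UMI of Tsc22d3 was then found in 33.5% of old and 38.2% of young control cells, 49.3% of old and 75.5% of young HU cells, and 15.7% of old and 24.4% of young reload cells. A UMI of Ddit4 was found in 3.57% of old and 3.17% of young control cells, 15.9% of old and 42.8% of young HU cells, and 2.0% of old and 3.07% of young reload cells. Without thinning, Ddit4 was found in 22.9% of old and 50.2% of young HU cells, and in 6.17% of old and 9.01% of young reload cells. At least 2 of Fkbp5, Tsc22d3, Klf9 and Ddit4 were found in 7.42% of old and 9.5% of young control cells, 26.4% of old and 55.6% of young HU cells, and 1.83% of old and 3.7% of young reload cells. The exact binomial 95% intervals of this last share were 22.6 to 30.5% in old and 50.9 to 60.3% in young HU, and no other library's reached above 12.3%. No class can be assumed to lack these genes, so the share that free RNA would give was not measured. In young HU, with a median of 3195.5 UMIs before thinning in macrophage-like cells, the same shares were read in other classes. Dendritic cell-like cells, with a median of 7147 UMIs, held a UMI of Tsc22d3 in 40.0% (25.7 to 55.7%), of Ddit4 in 24.4% (12.9 to 39.5%) and at least 2 of the 4 genes in 22.2% (11.2 to 37.1%) of 45 cells. Innate lymphoid cell-like cells, with a median of 2487 UMIs, held a UMI of Tsc22d3 in 24% (9.36 to 45.1%), of Ddit4 in 12% (2.55 to 31.2%) and at least 2 of the 4 in 20.0% (6.83 to 40.7%) of 25 cells.

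**Figure D2:**
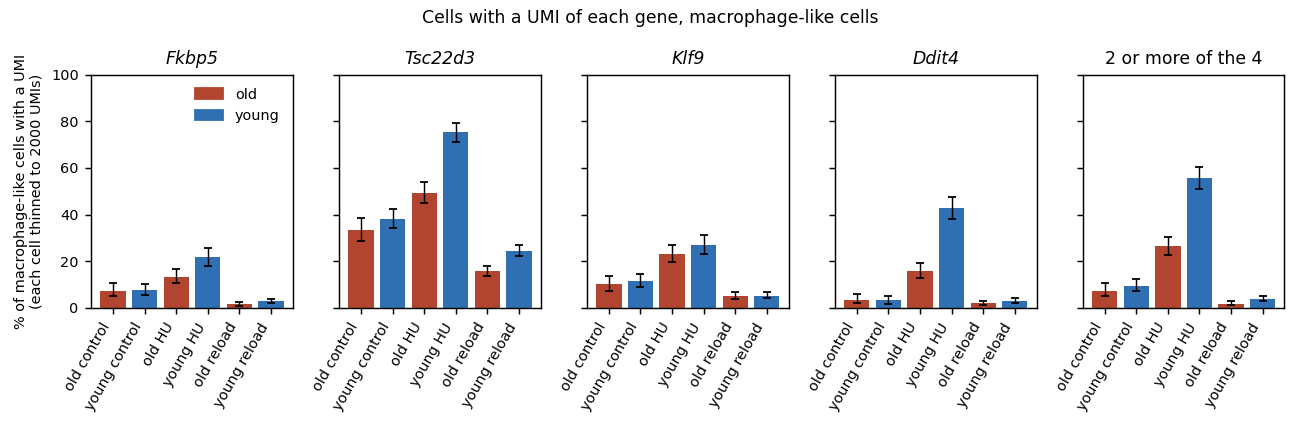
Percent of macrophage-like cells with a UMI of Fkbp5, Tsc22d3, Klf9 or Ddit4, and with at least 2 of the 4, after thinning each cell to 2000 UMIs, by library, with exact binomial 95% intervals (counting error only). At least 2 of the 4 were found in 26.4% of old and 55.6% of young HU cells.

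Macrophage-like cells differed in kind between libraries, so the genes were also read in subsets. Cells with a UMI of Lyve1, Vsig4, Folr2 or Timd4, transcripts of resident macrophages, made up 67.6% of old and 52.4% of young control, 68% of old and 63.2% of young HU, and 43.7% of old and 42.4% of young reload cells. Among them Fkbp5 was at 6.2 CPM in old and 17.3 CPM in young reload cells, against 81.2 CPM in old and 123 CPM in young HU cells. Among the others it was at 7.32 CPM in old and 11.3 CPM in young reload cells, against 62 CPM in old and 120.2 CPM in young HU cells. The 5 genes that fell with reload were called in either subset by edgeR. Among all genes, 349 of 9397 were called in cells with a resident transcript and 640 of 8226 in those without. A single UMI in cells not thinned sets this split, so it also follows depth and does not hold the kind of macrophage fixed. Of young reload cells, 42.4% counted as resident by it, while 3.36% lay in the cluster led by Lyve1, Vsig4, Fxyd2 and C4b. In the cluster led by Lyve1, Vsig4, Fxyd2 and C4b, which held cells of every library (184 old and 304 young control, 346 old and 107 young HU, 121 old and 47 young reload cells), Ddit4 was at 14 CPM in old and 11.1 CPM in young control cells, at 74.6 CPM in old and 179 CPM in young HU cells, and at 6.81 CPM in old and 3.76 CPM in young reload cells. Klf9 there was at 76.3 CPM in old and 59.4 CPM in young control cells, at 158 CPM in old and 194 CPM in young HU cells, and at 69.8 CPM in old and 48.9 CPM in young reload cells. Both genes were highest in HU within this cluster too, with Ddit4 in reload on 4 UMIs in old and 1 UMI in young cells. The cluster led by Il10, Cxcl1 and Ptgs2 held 60.2% of old and 68.7% of young reload cells. In its 45 old control and 41 old HU cells, Fkbp5 was at 38 and 36.4 CPM, Tsc22d3 at 162 and 129 CPM. Ddit4 was at 10.1 and 12.1 CPM (4 and 3 UMIs). Of these, Klf9 alone lay well above control, at 60.7 against 17.8 CPM. Young HU held too few cells of it to be read. In the cluster led by Cd209f and Fcna, Ddit4 was at 359 CPM in old HU against 67.3 CPM in 24 old control cells, whereas Tsc22d3 was at 818 CPM in old HU against 856 CPM in old control. For Tsc22d3 this cluster was thus high without unloading, on few control cells. The subsets come from the same libraries and do not repeat the comparison.

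RNA of other cell types in this class was read from their markers. The 10 endothelial markers, of which 6 to 9 had a UMI, summed to 87.9 CPM in old and 88.3 CPM in young control cells, 49.3 CPM in old and 64.3 CPM in young HU cells, and 32.2 CPM in old and 17.7 CPM in young reload cells, with Aqp1 the most abundant throughout. In HU this was 0.755% of the level in old and 0.819% of that in young endothelial-like cells. At that share, endothelial RNA would carry 10.0 of the 85.2 CPM of Ddit4 in old HU and 11.4 of the 372 CPM in young HU. The 8 fibroblast markers, of which 2 to 8 had a UMI, summed to 16.7 CPM in old and 54.4 CPM in young control cells, 39.1 CPM in old and 42.9 CPM in young HU cells, and 9.51 CPM in old and 10.3 CPM in young reload cells, and the 6 mast cell markers, of which 5 to 6 had a UMI, to 9.88 CPM in old and 80.4 CPM in young control cells, 58.8 CPM in old and 58 CPM in young HU cells, and 4.75 CPM in old and 7.63 CPM in young reload cells. Both sums were thus higher in HU than in reload, as were the 5 fallen members, and the highest library for each was young control. The 6 myofibre markers, all with a UMI, summed to 26.2 CPM in old and 15.4 CPM in young control cells, 46.1 CPM in old and 112 CPM in young HU cells, and 25.6 CPM in old and 25.4 CPM in young reload cells. The 5 erythroid markers, of which 3 to 5 had a UMI, summed to 814 CPM in old HU and 584 CPM in young control, and to at most 10.7 CPM in the other libraries. The 9 neutrophil markers summed to more, at 5627 CPM in old and 544 CPM in young control cells. They were at 848 CPM in old and 59.8 CPM in young HU cells, and at 222 CPM in old and 203 CPM in young reload cells. The 10 B cell markers summed to 345 CPM in old control cells and to 94.3 to 160 CPM in the other libraries. The fibroblast sum in HU was 0.143% of the level in old and 0.111% of that in young fibroblast-like cells. At that share, fibroblast RNA would carry 0.39 of the 85.2 CPM of Ddit4 in old HU and 0.38 of the 372 CPM in young HU. Of Tsc22d3 it would carry 1.18 of 367 CPM in old HU and 1.62 of 992 CPM in young HU. The part of these RNAs other than endothelial and fibroblast in the levels of the 8 genes was not tested. Of 15 genes of the early response to tissue dissociation, 3 fell with reload, Jun by 1.71 ± 0.20, Ier2 by 2.27 ± 0.32 and Egr1 by 1.29 ± 0.19 on the log2 scale (SE, adjusted p = 0.0209, 0.0257 and 0.0261 by edgeR), and none rose, where 7.8% of all genes were called. Hspa1a, a heat shock gene of that list chosen after its values were seen, was at 614 CPM in old and 4461 CPM in young control cells, at 289 CPM in old and 1804 CPM in young HU cells, and at 283 CPM in old and 197 CPM in young reload cells. The part of dissociation in the levels of the 8 genes was not tested.

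Age was compared within each treatment, library against library, and by the additive fit over the treatments. In HU macrophage-like cells, 5 genes were lower in old than in young mice by more than counting error. How many of all genes differed so between the 2 libraries was not counted, in HU or in the other treatments. The old over young log2 ratio (95% counting interval) was -2.13 for Ddit4 (-2.33 to -1.93), -1.43 for Tsc22d3 (-1.54 to -1.33), -0.71 for Per1 (-1.05 to -0.37), -0.70 for Fkbp5 (-0.96 to -0.44) and -0.35 for Klf9 (-0.56 to -0.15). In HU the intervals of Sgk1, Zbtb16 and Nr3c1 held 0. The ratios were also read within clusters, an alternative added after seeing the data. Within the cluster led by Cd209f and Fcna, which held 13.1% of old and 58.2% of young HU cells, the ratio in HU was -0.59 (-0.92 to -0.27) for Ddit4 and -0.72 (-0.93 to -0.51) for Tsc22d3, and within the cluster led by Lyve1, Vsig4, Fxyd2 and C4b it was -1.26 (-1.72 to -0.79) for Ddit4 and -0.70 (-0.93 to -0.47) for Tsc22d3. Within either cluster these ratios were thus closer to 0 than over the whole class. The intervals of Klf9 and Per1 held 0 there, on fewer UMIs. In the cluster led by Cd209f, Klf9 was at -0.27 (-0.77 to 0.20) and Per1 at -0.45 (-1.34 to 0.34). In the other, Klf9 was at -0.29 (-0.69 to 0.12) and Per1 at -0.68 (-1.35 to 0.033), close to its value over the class. Fkbp5 was at -0.98 (-1.79 to -0.26) in the cluster led by Cd209f and at -0.39 (-0.93 to 0.19) in the other. In control cells the intervals of all but Tsc22d3 and Sgk1 held 0, Tsc22d3 was at -0.37 (-0.51 to -0.24) and Sgk1 at -1.0 (-1.28 to -0.74). In reload cells Fkbp5 was at -1.07 (-1.50 to -0.65), Tsc22d3 at -0.83 (-0.95 to -0.71), Per1 at -0.54 (-0.76 to -0.32), Sgk1 at -0.49 (-0.65 to -0.33), Ddit4 at -0.33 (-0.62 to -0.034) and Nr3c1 at 0.35 (0.18 to 0.51), and the intervals of Klf9 and Zbtb16 held 0. The reload ratio of Ddit4 was -1.49 (-2.04 to -0.96) in cells with a resident transcript and 0.43 (0.043 to 0.83) in those without. In the cluster led by Ifit2, Ifit3 and Rsad2 it was 1.07 (0.31 to 1.84). In the cluster led by Il10, Cxcl1 and Ptgs2, the reload intervals of Ddit4, Sgk1, Nr3c1 and Zbtb16 held 0. Those of Fkbp5, Tsc22d3, Per1 and Klf9 lay below 0 there. Over the 3 treatments 0 of the 8 genes and 0% of all genes passed by edgeR, and DESeq2 called none of the 8. An unadjusted p under 0.05 was found for Tsc22d3 (log2 fold change -0.86 ± 0.20) and Sgk1 (-0.56 ± 0.22). Whether the age difference itself differs between treatments was not tested, with 1 library each.

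**Figure D3:**
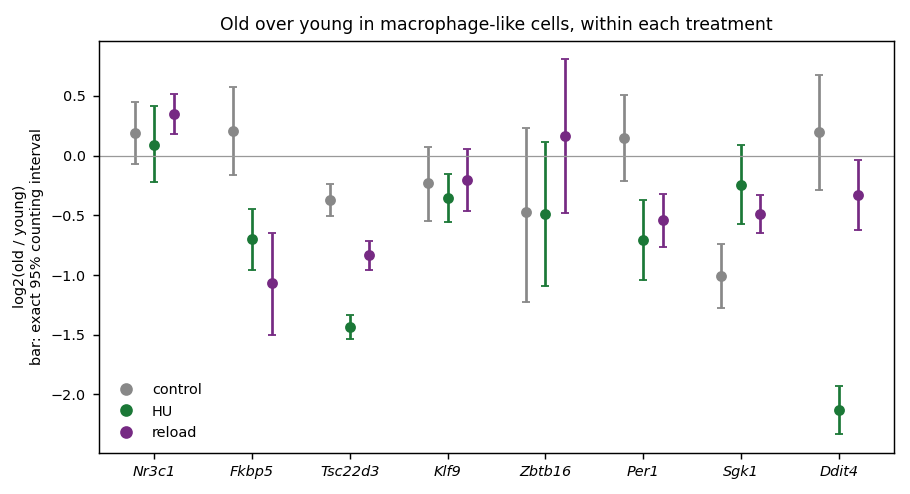
Old over young log2 ratio of the 8 genes in macrophage-like cells within control, HU and reload, with exact 95% counting intervals. The lowest points are Ddit4 and Tsc22d3 in HU, at -2.13 and -1.43, values that lie closer to 0 within clusters, and no gene passed the test over the treatments.

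Dendritic cell-like cells, 55 old and 45 young in HU, showed the same fall with reload. Of 7 genes tested, 4 fell, where 4.25% of all genes were called: Fkbp5 by 2.88 ± 0.44, Ddit4 by 2.73 ± 0.40, Klf9 by 2.31 ± 0.37 and Tsc22d3 by 1.54 ± 0.28 on the log2 scale (SE, adjusted p = 0.00694, 0.00619, 0.00809 and 0.0148 by edgeR). Ddit4 was at 46.2 CPM in old and 34.6 CPM in young control cells, at 69.7 CPM in old and 175 CPM in young HU cells, and at 10.6 CPM in old and 30.2 CPM in young reload cells. Fkbp5 was at 18.5 CPM in old and 14.4 CPM in young control cells, at 37.2 CPM in old and 88.8 CPM in young HU cells, and at 11 CPM in old and 8.06 CPM in young reload cells. The HU libraries were the highest for either gene, young HU far above old HU. None of the 4 was called without the young HU library (adjusted p 0.127 to 0.192), without the young reload library (0.0917 to 0.349) or with classes taken from clusters (0.059 to 0.0773). Beside them, 8 of the 15 dissociation genes also fell with reload in this class. For HU over control no member passed, at 0.698% of all genes, with 3 members at an unadjusted p under 0.05 and none called by DESeq2.

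In the remaining classes nearly all tests of the members failed. In monocyte-like cells, of which young HU held 21, the reload over HU log2 fold changes were -2.72 ± 0.57 for Fkbp5, -2.15 ± 0.45 for Ddit4, -1.91 ± 0.45 for Klf9 and -1.38 ± 0.36 for Tsc22d3 (SE, adjusted p 0.128 to 0.257 by edgeR). There 0 of 8 members and 0% of genes passed for reload over HU, with 5 members at an unadjusted p under 0.05 and 2 called by DESeq2. For HU over control 0 members and 0.0132% of genes passed, with 5 members at an unadjusted p under 0.05 and none called by DESeq2. In neutrophil-like cells 0 of 6 members tested passed by edgeR for HU over control or reload over HU (0.852% and 1.07% of genes), with 4 and 2 at an unadjusted p under 0.05 and none called by DESeq2. In innate lymphoid cell-like cells 0 of 5 passed by edgeR (0.447% and 0.993% of genes), with 2 and 1 at an unadjusted p under 0.05 and none called by DESeq2. T cell-like cells were fitted with a minimum of 15 cells, chosen after the cell numbers were seen, since young HU held 19. Ddit4 rose with HU by 1.45 ± 0.36 and fell with reload by 1.87 ± 0.42 on the log2 scale (SE, adjusted p = 0.0484 and 0.0383 by edgeR; 1.19% and 0.732% of genes were called). It was at 76.5 CPM in old and 81.5 CPM in young control cells, at 170.4 CPM in old and 296 CPM in young HU cells, and at 67 CPM in old and 52 CPM in young reload cells, of which young HU rests on 14 UMIs. The HU call was lost without any 1 of the 6 libraries (adjusted p 0.0544 to 0.42), and DESeq2 made neither call. The reload call was lost without old HU, old reload, young control or young reload (adjusted p 0.0761 to 0.475). For old over young no member passed by edgeR or DESeq2 in any of these classes or in dendritic cell-like cells, where 0.0132% of genes in monocyte-, 0.355% in neutrophil-, 0% in innate lymphoid cell-, 0.0271% in T cell- and 0.0152% in dendritic cell-like cells were called. At an unadjusted p under 0.05 were 2 members in monocyte-like, 1 in T cell-like and 1 in dendritic cell-like cells.

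**Figure D4:**
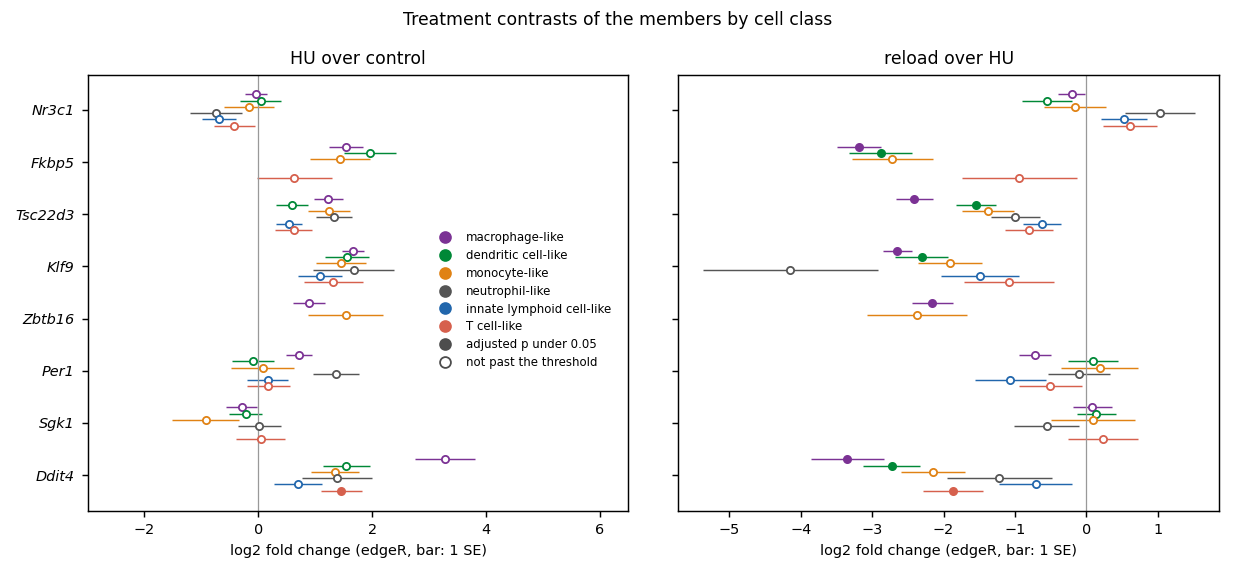
Fitted log2 fold changes with their standard errors for HU over control and reload over HU, for each gene and cell class. Filled points have an adjusted p under 0.05: for reload over HU 5 genes in macrophage-like cells, 4 in dendritic cell-like cells and Ddit4 in T cell-like cells, and for HU over control Ddit4 in T cell-like cells.

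Stromal cells that came through the CD45 sort reached 20 cells only in HU, so nothing can be said of unloading in them. In endothelial-like cells, Ddit4 was at 1328 CPM in old and 1385 CPM in young HU, Sgk1 at 1138 CPM in old and 929.8 CPM in young HU, and Klf9 at 480.0 CPM in old and 531 CPM in young HU. These cells held 56.3% of old and 68.6% of young HU's Sgk1 UMIs, and 47.8% of old and 46.5% of young HU's Ddit4 UMIs. Over all kept cells, Sgk1 was at 82.1 CPM in old and 87.7 CPM in young control cells, at 157 CPM in old and 233 CPM in young HU cells, and at 59.3 CPM in old and 79.4 CPM in young reload cells, a peak in HU that macrophage-like cells did not show. In fibroblast-like cells Tsc22d3 was at 826 CPM in 49 old and 1455 CPM in 73 young HU cells, and Zbtb16 at 115 CPM in old and 161 CPM in young HU cells. In 42 mural-like cells of young HU, Klf9 was at 717 CPM and Ddit4 at 1087 CPM.

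Between classes each gene had an order of its own. The receptor gene Nr3c1 was highest in gamma delta T and innate lymphoid cell-like cells: over libraries its level was 176 to 565 CPM (median 413, 3 libraries) in gamma delta T cell-like cells, 233 to 569.7 CPM (median 359, 6 libraries) in innate lymphoid cell-like cells, 125 to 300.2 CPM (median 201, 5 libraries) in T cell-like cells and 179 to 212 CPM (median 195, 2 libraries) in NK cell-like cells. It was 51.9 to 179 CPM (median 100.3, 6 libraries) in neutrophil-like, 62.9 to 106 CPM (median 69.4, 4 libraries) in B cell-like, 47.9 to 69.5 CPM (median 61.5, 6 libraries) in macrophage-like, 41.5 to 72.7 CPM (median 59.3, 6 libraries) in monocyte-like and 25 to 48.8 CPM (median 37, 6 libraries) in dendritic cell-like cells. Mast cell-like cells reached 20 cells in young reload alone, with 304 CPM, and the stromal classes, read in HU alone, were at 98 to 135 CPM in endothelial-like, 66.8 to 82.3 CPM in fibroblast-like and 59.1 CPM in mural-like cells. Without these, the ranges of neighbours in the order overlap, except those of NK cell-like and neutrophil-like cells, which lie just apart. Against macrophage-like cells of the same libraries, the log2 fold change was 2.56 ± 0.20 in innate lymphoid cell-, 1.55 ± 0.20 in T cell-, 1.03 ± 0.30 in neutrophil- and -0.65 ± 0.12 in dendritic cell-like cells (SE, adjusted p = 2.94e-14, 2.75e-06, 0.00273 and 0.000643 by edgeR).

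Of 48 such fits, 8 genes in 6 classes, 24 passed: 5 in B cell-, 5 in T cell-, 4 in dendritic cell-, 4 in innate lymphoid cell-, 2 in monocyte- and 4 in neutrophil-like cells. Of all genes, 38.3%, 49.6%, 45.2%, 51.4%, 35.9% and 54.6% passed in the same order of classes, so the counts are near the background. Per1 was higher than in macrophage-like cells in neutrophil- (2.08 ± 0.29), innate lymphoid cell- (1.42 ± 0.22), B cell- (1.06 ± 0.30) and T cell-like cells (1.05 ± 0.20). Klf9 was lower in B cell- (-2.12 ± 0.41), neutrophil- (-1.40 ± 0.35), dendritic cell- (-1.37 ± 0.14), T cell- (-0.78 ± 0.27) and monocyte-like cells (-0.52 ± 0.17). Ddit4 was higher in innate lymphoid cell- (1.93 ± 0.34) and T cell-like cells (1.52 ± 0.22). Tsc22d3 was higher in B cell- (0.86 ± 0.26) and T cell-like cells (0.74 ± 0.20) and lower in monocyte- (-0.78 ± 0.20) and dendritic cell-like cells (-0.50 ± 0.17). Sgk1 was lower in innate lymphoid cell- (-1.53 ± 0.28) and B cell-like cells (-1.42 ± 0.34) and higher in neutrophil-like cells (0.79 ± 0.30). Fkbp5 was lower in B cell-like cells (-1.58 ± 0.46) and Zbtb16 in dendritic cell-like cells (-1.94 ± 0.44). Several of these calls were lost under alternatives: Sgk1 in neutrophil- (9 of 14), Klf9 in monocyte- (6 of 14), T cell- (5 of 13) and neutrophil- (1 of 14), Tsc22d3 in dendritic cell- (4 of 14) and B cell- (3 of 12), Per1 and Fkbp5 in B cell- (2 of 12 and 1 of 12) and Nr3c1 in neutrophil-like cells (1 of 14). Zbtb16, which directs the development of innate-like T cells, was at 143 CPM in old and 65.9 CPM in young control gamma delta T cell-like cells, against 13.2 CPM in old and 9.31 CPM in young control T cell-like cells.

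**Figure D5:**
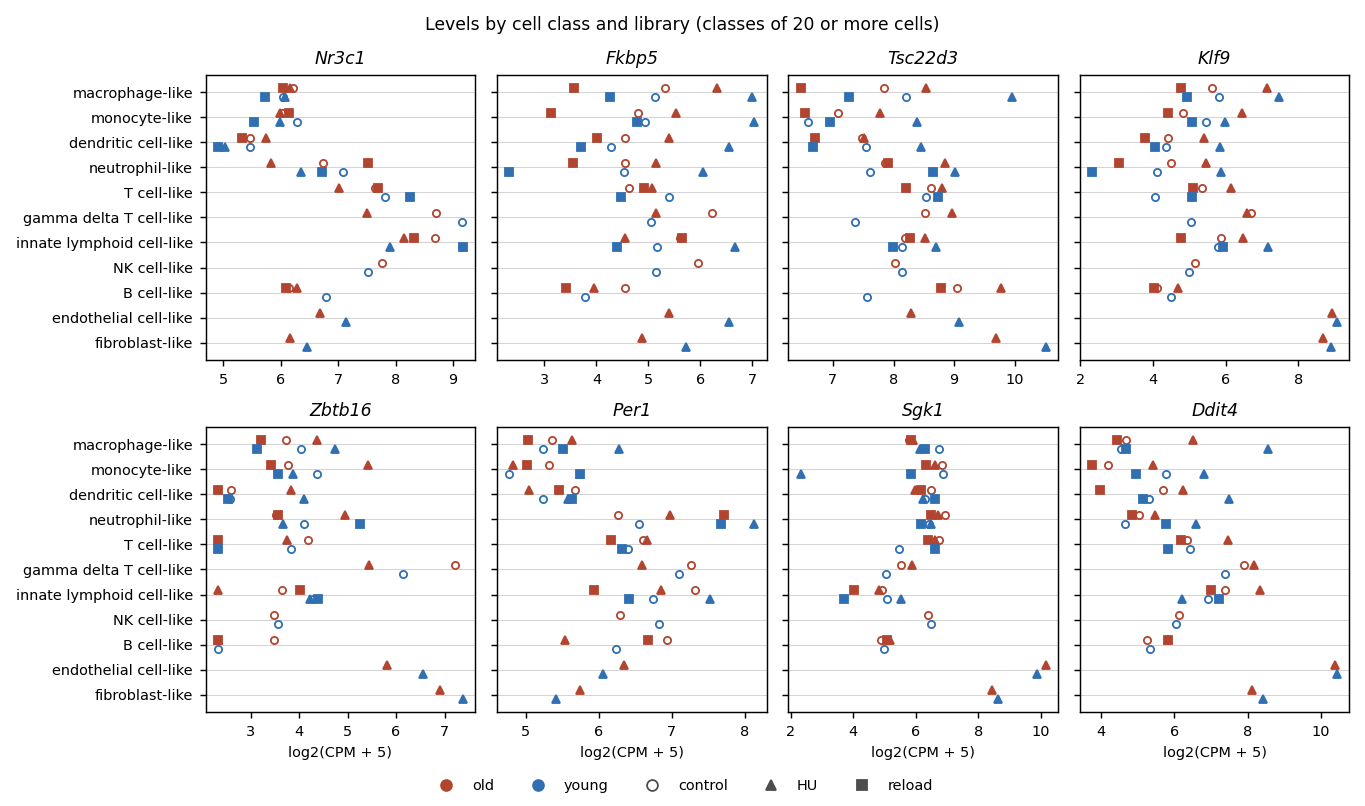
Levels of the 8 genes as log2(CPM + 5) by cell class, 1 point per library with at least 20 cells of the class. Nr3c1 is highest in gamma delta T and innate lymphoid cell-like cells (medians 413 and 359 CPM), and Ddit4 reaches 1328 CPM in old and 1385 CPM in young HU endothelial-like cells.

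Other genes of the pathway were read from lists. Of 28 further glucocorticoid targets, 25 were tested in macrophage-like cells, 5 fell with reload by edgeR and none rose, with a median log2 fold change of -0.048 (0.015 over all genes) and 12 values above 0. Among all genes 7.8% were called for this contrast, in either direction. For HU over control 10 of the 25 were above 0, with a median of -0.33 (-0.011 over all genes), and none was called by edgeR (0% of all genes), with 12 at an unadjusted p under 0.05 and 3 called by DESeq2. Among those that fell with reload were Glul (glutamine synthetase, -1.73 ± 0.21), Cd163 (the haemoglobin scavenger receptor, -2.32 ± 0.33), Cebpd (a transcription factor, -1.71 ± 0.23) and Txnip (an inhibitor of thioredoxin, -2.77 ± 0.48), with adjusted p = 0.0229, 0.0256, 0.0233 and 0.0331. Cd163 was at 237 CPM in old and 121 CPM in young control cells, at 392 CPM in old and 555 CPM in young HU cells, and at 112 CPM in old and 77.7 CPM in young reload cells. Glul was at 418 CPM in old and 404 CPM in young control cells, at 589 CPM in old and 833 CPM in young HU cells, and at 174 CPM in old and 241 CPM in young reload cells. These 2 of the list were highest in HU and lowest in reload at either age. In dendritic cell-like cells 8 of 22 further targets tested fell with reload and none rose (median -0.95, 0.034 over all genes), where 4.25% of all genes were called. Among the 8 were Nfkbia, the inhibitor of NF-kB (-1.18 ± 0.17, adjusted p = 0.00604), and Zfp36, an mRNA decay factor (-1.46 ± 0.19, adjusted p = 0.0034).

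Of 15 genes for receptor chaperones, cofactors and steroid metabolism, 13 were tested in macrophage-like cells and Smarca4, a chromatin remodeller, rose with reload (0.87 ± 0.19, adjusted p = 0.0482 by edgeR), while none fell. Of all genes in this class 7.8% were called for reload over HU, so 1 of 13 is near the background. The chaperone gene Hsp90aa1 fell with HU in dendritic cell-like cells (-2.04 ± 0.37, adjusted p = 0.042), where 0.698% of all genes were called for HU over control. Of 15 clock genes, 13 were tested in macrophage-like cells and Dbp, an output gene of the clock, fell with reload (-2.39 ± 0.30, adjusted p = 0.0233), while none rose. That 1 of 13 is again near the 7.8% of all genes called. Dbp was at 5.45 CPM in old and 6.55 CPM in young control cells, at 15.9 CPM in old and 16.1 CPM in young HU cells, and at 2.58 CPM in old and 3.37 CPM in young reload cells. The time of day of collection is not given in the sources used here. Of 13 genes of the ATF4, hypoxia and p53 responses, to which Ddit4 also belongs, 9 were tested and 3 rose with reload, Ndrg1 (2.88 ± 0.56), Mdm2 (2.40 ± 0.47) and Slc2a1 (1.79 ± 0.36), with adjusted p = 0.0388, 0.0389 and 0.041, where 7.8% of all genes were called. None of the 9 fell, whereas Ddit4 fell with reload. The 13 genes summed to 1511 CPM in old and 1614 CPM in young control macrophage-like cells. Their sum was 1310 CPM in old and 476 CPM in young HU cells, and 1680 CPM in old and 1771 CPM in young reload cells. The part of these responses in the level of Ddit4 was not tested.

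Over 38 sums of a class in a library (50 cells or more), the genes most alike in level were sought among 7514 genes by Pearson's r of log2(CPM + 5), as a description, since the sums share libraries, depth and lineage. Fkbp5 was most like Klf9 (0.73), Serpinb6a (0.66) and Eif4e3 (0.65), Zbtb16 most like Klf9 (0.75), Pls3 (0.72) and Aaed1 (0.71) and Ddit4 most like Klf9 (0.83), Ier2 (0.82) and Map4 (0.81), so that Klf9 came first for each of these members. Klf9 itself was most like Thra (0.92), Smim10l1 (0.86) and Serpinb6a (0.85). Tsc22d3 was most like Ier2 (0.77), Txnip (0.73) and Cirbp (0.72), and Per1 most like Cdk11b (0.83), Sik1 (0.78) and Rnf125 (0.77). Sgk1 was most like Tm4sf1 (0.87), Timp3 (0.86) and Jam2 (0.86).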

How the data were processed

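UMIs were measured in 6 single-cell libraries of CD45+ soleus cells, 1 per age and treatment. The deposited values are raw UMI counts per gene and barcode. Per the labels, the authors counted reads with Cell Ranger (3.1.0; build mm10) and also used Seurat. Barcodes with at least 200 genes and at most 10% mitochondrial UMIs were kept, and 340 doublets marked by Scrublet (scanpy 1.11.5) were removed. A cell was placed in a class if it held at least 3 of the class's markers, with a lead of 1 over the next class. This rule and the T cell minimum were set after detection and cell numbers were seen, and the 8 genes and all lists were chosen with earlier results of these data known. UMIs were summed per library and class and tested with edgeR 4.0.16 (quasi-likelihood, TMM, filterByExpr, age plus treatment, 2 residual degrees of freedom, all genes, threshold 0.05), or with the library as a block between classes. Depth per library was 4981228 to 20185580 UMIs. Intervals are exact and cover counting error only. DESeq2 1.42.0, other normalization, filters, gates, clusters, thinning and leaving out each library were tried. Scripts were tested on simulated data. All 8 genes are named, with at most 4 called genes by UMIs from each list and the 3 genes most alike (for Nr3c1 not reported here); exceptions are stated. No authors' cell labels were used.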

Additional observations from a re-analysis of the deposited data

How the results depend on the processing

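Of 685 alternatives for 46 results on single members, 596 kept the direction and the side of the threshold, 63 lost the call, 18 gained a call and 8 changed sign. Members called in macrophage-like cells for HU over control numbered 0, but 4 with DESeq2, 4 with no filter on low counts, 1 after thinning, 2 in cells without a resident transcript (an alternative added after seeing the data) and 0 to 4 with a library left out. For reload over HU there were 5 in macrophage-like cells, 0 to 5 with a library left out (0 without young reload). In dendritic cell-like cells there were 0 for HU over control, 3 with no filter and 0 to 2 with a library left out, and 4 for reload over HU, 0 by cluster, 2 after thinning and 0 to 4 with a library left out. Among all genes, HU over control in macrophage-like cells called 285 of 7235 with DESeq2 and 990 of 17293 with no filter. It called 4 of 7431 after thinning and 21 of 8226 in cells without a resident transcript. In dendritic cell-like cells it called 429 of 13814 with no filter, and reload over HU called 175 of 2217 after thinning and 0 of 9057 by cluster. For the other classes such shares are not given here. In monocyte-, neutrophil- and innate lymphoid cell-like cells together there were 0 members called for each contrast. Leaving out a library gave 0 to 2 for HU over control, 0 to 3 for reload over HU and 0 to 1 for old over young, no filter gave 4 for reload over HU and 1 for old over young, and for reload over HU DESeq2 gave 2 and totals without TMM 1. In T cell-like cells the single call for HU over control and that for reload over HU became 0 with DESeq2, and with a library left out 0 for HU over control and 0 to 1 for reload over HU. The sign changed only for values that were never called. Sgk1 for HU over control in macrophage-like cells (main -0.29) was 0.013 in cells with a resident transcript, 0.051 without young HU and 0.10 without young control. Sgk1 for reload over HU (0.085) was -0.30 in cells with a resident transcript, -0.19 after thinning and -0.23 without young HU. Nr3c1 for HU over control (-0.041) was 0.086 after thinning and 0.040 without young control. With a library left out these ranged from -0.68 to 0.10 for Sgk1 and -0.14 to 0.040 for Nr3c1 in HU over control, and from -0.23 to 0.47 for Sgk1 in reload over HU. The cause of these changes was not tested. Some settings were not run for monocyte-, neutrophil- and innate lymphoid cell-like cells, where a library then held fewer than 20 cells. No paired analysis was possible because each group has 1 library and no replicate numbers to match, and the fits already hold age or the library as a term. Within clusters, the old over young ratios of Ddit4, Tsc22d3 and Fkbp5 in HU macrophage-like cells lay outside the counting interval of the whole class. Low counts limit the smaller classes.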
